A study of Mus musculus with 14 samples.

Results

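The IL-1 family cytokines and their receptors and inhibitors were followed in 14 liver RNA-seq libraries, 1 per mouse. They comprise 10 of the 17656 genes in the expression tables, taken by symbol and not by any measured value: the ligands *Il1a*, *Il1b*, *Il18* and *Il33*, the antagonist *Il1rn*, the binding protein *Il18bp*, the signaling receptor chains *Il1r1*, *Il1rap* and *Il1rl1*, and the decoy receptor *Il1r2*. Mice were injected through the tail vein with concanavalin A (ConA), a plant lectin that activates T cells and brings on an immune-mediated hepatitis, or with saline, and livers were taken at 8 h. The 4 groups were WT saline (3 mice), KO saline (3 mice), WT ConA (4 mice) and KO ConA (4 mice). All mice were 8 weeks old by the series text and on the C57BL/6 background, the ConA dose was 8 mg/kg, and KO stands for mice labelled as *Ythdf1* knockout, a CRISPR/Cas9 deletion of an exon in the whole body, so that every cell type of the liver carried it.

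IL-1α and IL-1β act through a receptor made of IL-1R1 and the accessory chain IL-1RAP, which recruits MyD88 and IRAK kinases and activates NF-κB. Signaling is held in check by the receptor antagonist, which occupies IL-1R1 without recruiting the accessory chain, and by IL-1R2, which binds IL-1 but carries no signaling domain. IL-18 has its own soluble inhibitor, IL-18BP, and IL-33, a nuclear alarmin released from damaged cells, signals through ST2, the product of *Il1rl1*, again with IL-1RAP as partner. In the liver these cytokines are known to drive the acute-phase response of hepatocytes and the recruitment of myeloid cells.

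Expression was given as TPM, a count of transcripts relative to all those in the library that is scaled to gene length, so that levels of different genes can be set side by side. TPM for the whole *Ythdf1* gene was 12.0 to 13.9 in WT saline, 18.4 to 20.8 in KO saline, and in ConA mice 18.7 to 25.6 for WT and 15.5 to 26.2 for KO. A whole-gene value does not check the deletion of an exon, and the genotype labels were therefore not checked by these files. Hepatocyte markers made up a summed 108045 to 129610 TPM in WT saline, so the tissue label was borne out by its defining genes. Some libraries stood apart. Library 3 of each ConA group had the lowest median TPM of its group, at 1.68 in WT ConA and 1.96 in KO ConA. WT saline mice 2 and 3 were the closest pair of replicates, with a median absolute log2 ratio of 0.082 over the 8743 genes at TPM 1 or more in every library, against 0.131 to 0.469 for the other pairs. The genotype calls that rest on this pair are given with and without it.

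The RefSeq promoter table for GRCm38.p6, the build named in the labels, held 15 transcription starts for the 10 genes. The 250 bases before the starts of *Il1rn* and *Il33* are shown because the genotype differences described below fell on these genes, and both are transcribed from more than 1 start, which the whole-gene TPM does not separate. *Il1rn* has 3 listed starts spread over 8511 bases (the third lies close to the second, and its overlapping window is not printed), known to give intracellular and secreted forms of the antagonist, and *Il33* has 2 starts 20677 bases apart. The windows lie at chr2:24336610-24336859 and chr2:24345041-24345290 on the plus strand for *Il1rn* and at chr19:29924863-29925112 and chr19:29945540-29945789 on the plus strand for *Il33*. Capitals mark an AP-1 match (TGANTCA) or a C/EBP match (TTGCNNAA), searched on both strands.
Il1rn, first start: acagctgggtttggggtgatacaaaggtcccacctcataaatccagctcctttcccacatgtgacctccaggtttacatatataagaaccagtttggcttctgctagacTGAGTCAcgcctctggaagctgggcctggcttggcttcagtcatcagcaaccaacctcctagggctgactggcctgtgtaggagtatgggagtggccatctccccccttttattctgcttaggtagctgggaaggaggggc
Il1rn, second start: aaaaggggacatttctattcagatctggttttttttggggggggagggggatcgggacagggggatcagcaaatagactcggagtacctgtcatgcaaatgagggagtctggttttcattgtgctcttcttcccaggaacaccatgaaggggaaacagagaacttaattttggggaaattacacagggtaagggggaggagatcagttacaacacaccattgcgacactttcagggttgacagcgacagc
Il33, distal start: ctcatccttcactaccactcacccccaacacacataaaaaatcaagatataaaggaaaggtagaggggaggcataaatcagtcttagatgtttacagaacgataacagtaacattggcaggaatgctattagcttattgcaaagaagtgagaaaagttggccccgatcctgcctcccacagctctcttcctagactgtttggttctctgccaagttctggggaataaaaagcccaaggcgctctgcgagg
Il33, proximal start: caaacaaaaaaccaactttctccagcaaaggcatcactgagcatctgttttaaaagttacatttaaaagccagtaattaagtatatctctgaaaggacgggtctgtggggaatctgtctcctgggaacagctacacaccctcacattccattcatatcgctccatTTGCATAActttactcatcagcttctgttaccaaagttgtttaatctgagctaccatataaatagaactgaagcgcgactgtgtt

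The AP-1 match began 141 bases before the first start of *Il1rn*, and the C/EBP match 85 bases before the proximal start of *Il33*. The other windows of these genes held none of the 5 motifs searched. *Il1b* and *Il1r1*, a ligand and a receptor chain that also rose after ConA, are shown for comparison, at chr2:129371140-129371389 on the minus strand and, for the second start of *Il1r1*, at chr1:40266336-40266585 on the plus strand. Capitals mark a match to the NF-kB consensus.
Il1b: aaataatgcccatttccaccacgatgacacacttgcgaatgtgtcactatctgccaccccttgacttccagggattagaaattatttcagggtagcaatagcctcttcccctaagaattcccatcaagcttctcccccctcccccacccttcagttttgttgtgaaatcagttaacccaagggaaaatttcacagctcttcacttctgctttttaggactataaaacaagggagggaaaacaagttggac
Il1r1, second start: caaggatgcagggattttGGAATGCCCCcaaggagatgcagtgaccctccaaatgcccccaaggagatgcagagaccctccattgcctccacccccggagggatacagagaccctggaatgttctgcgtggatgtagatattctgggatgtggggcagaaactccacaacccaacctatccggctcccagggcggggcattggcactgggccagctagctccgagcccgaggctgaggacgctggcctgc

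Across all 15 windows, AP-1 matched before 2 starts (*Il1a* and *Il1rn*), C/EBP before 4, GAS (TTCNNNGAA) before the start of *Il1r2* alone, the NF-kB consensus before the second start of *Il1r1* alone, and ISRE (GAAANNGAAA) before none. Among all 32851 promoters of the table, 6.75% held an AP-1 match, 9.56% C/EBP, 7.02% GAS, 3.90% the NF-kB consensus and 2.98% ISRE. Such matches are letters in a window and not measured binding.

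*Il1b*, the inducible secreted ligand, was low in saline liver and higher in every ConA mouse. Its TPM was 0.88, 1.41 and 1.79 in WT saline and 0.37, 0.42 and 0.58 in KO saline. After ConA it was 10.17, 6.90, 4.92 and 6.32 in WT and 10.26, 9.88, 7.93 and 5.15 in KO mice. No ConA mouse overlapped a saline mouse of its genotype, and the increase was 1.76 on the log2(TPM + 1) scale in WT (SE 0.230, adjusted p = 0.000207) and 2.64 in KO (SE 0.216, adjusted p = 1.89e-06). This scale understates the change of genes near or below 1 TPM. *Il1a*, the membrane-bound and intracellular ligand, stayed near 1 TPM throughout, at 0.40 to 1.24 in ConA-treated WT and 0.69 to 1.71 in ConA-treated KO mice. It was not tested in WT, where too few libraries reached 1 TPM, and in KO its log2 difference of 0.32 did not pass (adjusted p = 0.185). Of the exon bases of *Il1a*, 11.2% overlap a gene on the opposite strand, and whether reads were counted by strand was not given in the sources used here.

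*Il18*, a ligand made constitutively and matured by caspase-1, went the other way and fell in both genotypes. It was at 25.21, 25.00 and 24.04 TPM in WT saline and 19.40, 21.17 and 18.88 in KO saline. In WT ConA it was at 7.50, 7.39, 5.26 and 5.34 TPM, and in KO ConA at 5.43, 7.72, 7.48 and 5.68. The log2 fold change was -1.82 in WT (SE 0.159, adjusted p = 1.89e-05) and -1.47 in KO (adjusted p = 1.45e-05). Of 8 markers of Kupffer cells, the resident liver macrophages, 7 fell in WT and 4 in KO, where 31.0% and 30.7% of all genes fell. The marker sums were 92.7 to 155 TPM in WT saline and 42.4 to 95.1 in KO saline. After ConA these sums were 13.9 to 53.0 TPM in the WT and 9.76 to 41.1 in the KO mice. In KO mice *Marco*, a scavenger receptor gene, was 0.60 higher on the log2 scale without passing (adjusted p = 0.0754), and *Adgre1*, which encodes the macrophage antigen F4/80, differed by -0.10 (adjusted p = 0.658). In WT ConA the 3 libraries with nearly equal Kupffer sums of 13.9 to 14.1 TPM held *Il18* at 5.26 to 7.39 TPM. The library with the highest sum, 53.0 TPM, held the highest *Il18* of the group, at 7.50 TPM. In bulk tissue, fewer cells of a type and less RNA per cell cannot be told apart, and the part of these cells in the *Il18* decrease was not tested.

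*Il33* rose in both genotypes and reached its highest levels in KO mice. Saline values were 0.87, 0.93 and 0.55 TPM in WT and 0.75, 0.85 and 1.42 in KO. WT ConA mice were at 3.97, 3.20, 1.52 and 3.71 TPM and KO ConA mice at 6.47, 12.18, 8.74 and 10.07, so the lowest KO mouse lay above the highest WT mouse. The increase over saline was 1.16 on the log2 scale in WT (SE 0.236, adjusted p = 0.00269) and 2.35 in KO (SE 0.213, adjusted p = 4.05e-06).

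**Figure D1:**
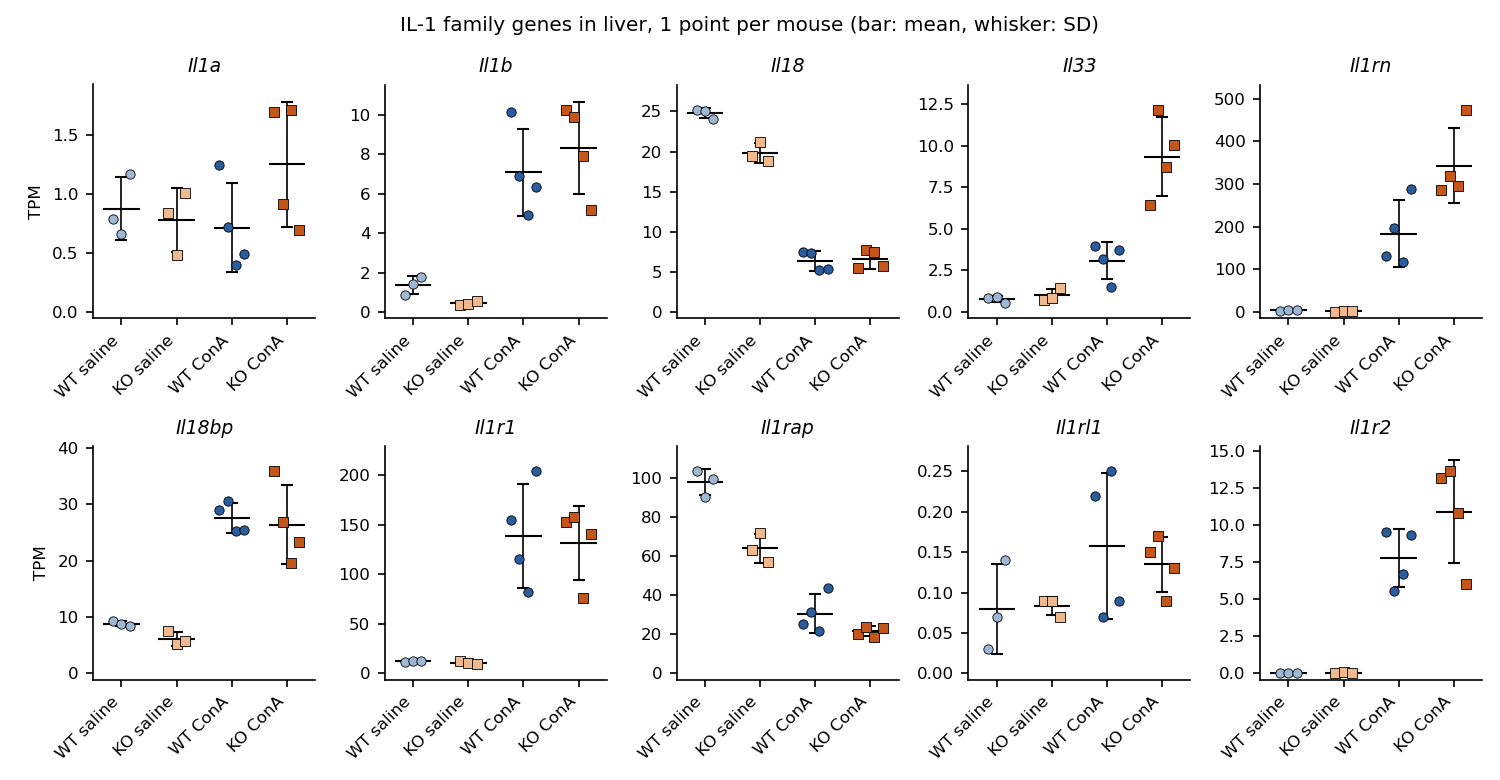
TPM of the 10 genes (vertical axes, each starting at 0) in each mouse of the 4 groups, with the group mean (bar) and SD (whisker). *Il1b*, *Il33*, *Il1rn*, *Il18bp*, *Il1r1* and *Il1r2* were higher in ConA mice, *Il18* and *Il1rap* lower, and *Il1rl1* stayed at or under 0.25 TPM.

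Both soluble inhibitors rose, *Il1rn* more than any ligand and *Il18bp* less than *Il1b*. *Il1rn* was at 3.19, 4.67 and 5.67 TPM in WT saline and 0.99, 2.07 and 1.95 in KO saline. After ConA it reached 130.24, 196.95, 117.77 and 289.21 TPM in WT and 285.02, 317.85, 295.19 and 473.64 in KO mice. Its log2 fold change was 5.0 in WT (SE 0.305, adjusted p = 2.55e-06) and 7.0 in KO (SE 0.206, adjusted p = 1.40e-09), and it became the most abundant of the 10 transcripts in each of the KO ConA mice. *Il18bp* rose from 8.41 to 9.30 TPM in WT saline to 25.20 to 30.50 in WT ConA, a log2 fold change of 1.53 (SE 0.130, adjusted p = 1.61e-05). In KO mice it rose from 5.14 to 7.50 TPM to 19.53 to 35.81, a log2 fold change of 1.92 (adjusted p = 1.32e-05).

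The decoy receptor *Il1r2* was listed at 0 in all WT saline mice and in 2 of 3 KO saline mice, the other being at 0.07 TPM. It was at 9.57, 5.59, 6.72 and 9.31 TPM in WT ConA and at 13.15, 13.63, 10.79 and 6.02 in KO ConA. No fold is given against groups listed at 0, but the difference on the log2(TPM + 1) scale passed in WT (adjusted p = 2.34e-06) and in KO (adjusted p = 5.79e-07). Neutrophils are a known source of this receptor, and 7 of 8 neutrophil markers rose with it in each genotype. Of all genes tested, 22.0% rose in WT and 33.9% in KO. The markers *Retnlg*, *Mmp8* and *Mmp9* were under 1 TPM in every saline mouse and entered the test through the ConA mice alone. The sums of all 8 markers were 9.57 to 11.2 TPM in WT saline and 5.42 to 10.99 in KO saline. After ConA these sums were 320 to 562 TPM in the WT and 415 to 957 in the KO mice, mostly *S100a8* and *S100a9*. The exception was *Ly6g*, a defining surface marker of neutrophils, which was at 0.57 to 5.04 TPM in WT saline and 0.18 to 1.64 in WT ConA and passed in neither genotype (log2 fold change -1.15, adjusted p = 0.0631 in WT and -0.21, adjusted p = 0.370 in KO). In KO ConA the mouse with the lowest *Il1r2* (6.02 TPM) also had the lowest neutrophil sum. This was not particular to neutrophils. The same mouse was lowest in the Kupffer, monocyte, T cell, B cell, sinusoidal endothelial, stellate and mast cell sums. It was not lowest in the hepatocyte and bile duct sums. The part of neutrophil content in the *Il1r2* rise was not tested.

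**Figure D2:**
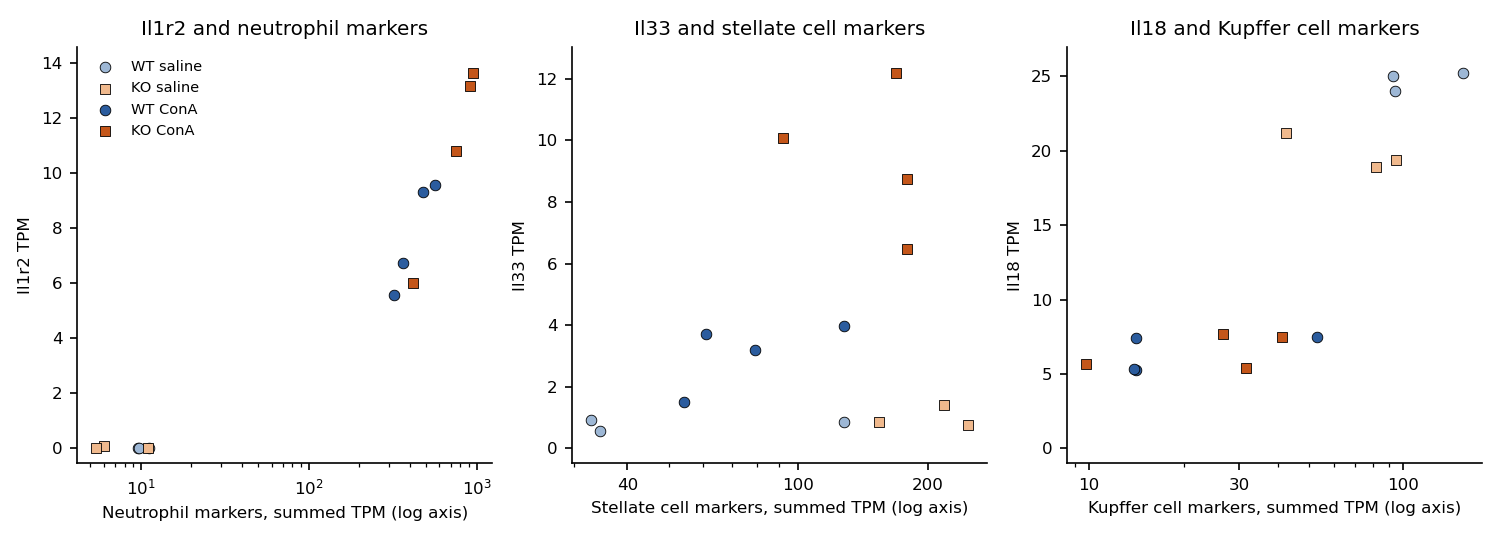
TPM of *Il1r2*, *Il33* and *Il18* (vertical axes) in each mouse against the summed TPM of neutrophil, stellate cell and Kupffer cell markers (log horizontal axes). ConA mice had neutrophil sums of 320 or more and saline mice of 11.2 or less, and KO saline mice had stellate cell sums of 154 to 248 with *Il33* at or under 1.42 TPM.

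The 2 chains of the IL-1 receptor moved in opposite directions. *Il1r1*, the binding chain, was at 11.36, 12.68 and 12.66 TPM in WT saline and 12.92, 10.75 and 9.04 in KO saline. It was at 154.38, 115.45, 81.91 and 203.64 TPM in WT ConA and at 152.08, 157.26, 76.15 and 140.43 in KO ConA, with library 3 of each group lowest. The log2 fold change was 3.32 in WT (SE 0.268, adjusted p = 1.21e-05) and 3.43 in KO (adjusted p = 5.44e-07).

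*Il1rap*, the shared accessory chain and the most abundant of the 10 transcripts in every saline mouse, fell. It was at 103.63, 90.69 and 99.85 TPM in WT saline and 63.25, 71.88 and 57.20 in KO saline. After ConA it was at 25.30, 31.70, 21.52 and 44.06 TPM in WT and 20.05, 23.91, 18.74 and 23.56 in KO mice. The log2 fold change was -1.69 in WT (SE 0.220, adjusted p = 0.000196) and -1.53 in KO (adjusted p = 3.61e-06). Hepatocyte markers, from the cell type that makes up most of the liver, fell in part. Against 31.0% of all genes in WT and 30.7% in KO, 4 and 5 of these 6 markers were called lower. Their sums, mostly *Alb*, were 57687 to 80857 TPM for WT and 51779 to 64256 for KO mice after ConA. *Apob*, a lipoprotein gene among the 6, was called higher in KO (log2 fold change 0.39, adjusted p = 0.0334) and did not pass in WT (-0.30, adjusted p = 0.230). The part of hepatocyte content in the *Il1rap* decrease was not tested.

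*Il1r1* was therefore less abundant than *Il1rap* in every saline mouse and more abundant in every ConA mouse. The TPM ratio of *Il1r1* to *Il1rap* was 0.110 to 0.140 in WT saline and 0.150 to 0.204 in KO saline. After ConA it was 3.64 to 6.10 for WT and 4.06 to 7.59 for KO mice. This ratio was chosen after the values were seen and carries no test. *Il1rl1*, the IL-33 receptor, was between 0.03 and 0.25 TPM in all mice and was tested in no comparison. Mast cells, which carry much of this receptor, left little trace, with the 5 mast cell markers summing to 0.14 to 1.34 TPM over all mice.

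In all, 8 of 8 genes tested were called in WT ConA against WT saline, 6 higher and 2 lower. Over all genes tested in that comparison 53.0% were called, 22.0% higher and 31.0% lower. In KO ConA against KO saline, 8 of 9 were called, again 6 higher and 2 lower, against 64.6% of all genes, 33.9% higher and 30.7% lower. More than 1 in 2 genes therefore passed in either genotype. *Il1r2* in both genotypes, *Il33* in WT and *Il1b* in KO had 0 saline mice at 1 TPM or more and entered the test through the ConA mice alone, so these had to differ in order to be tested. *Il1b* in WT and *Il1rn* in KO had 2 saline mice at that level and *Il33* in KO had 1. The counts are therefore descriptions of the genes that could be tested.

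**Figure D3:**
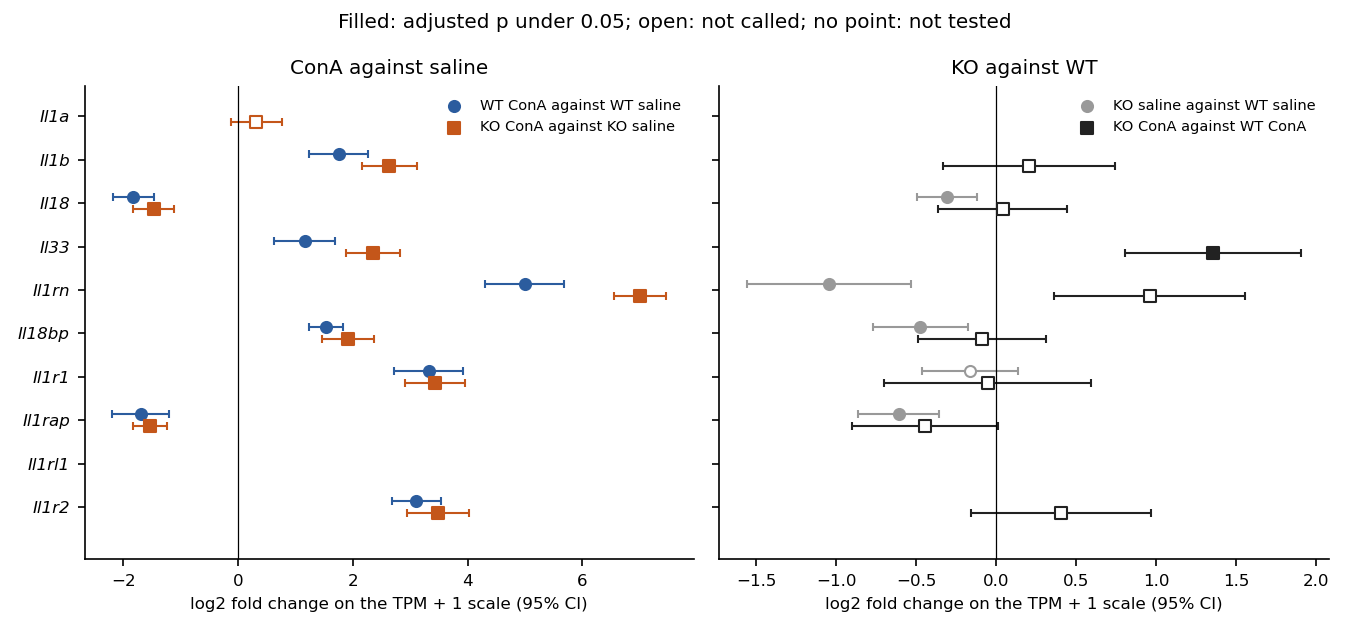
Log2 fold changes on the TPM + 1 scale (horizontal axes, with 95% confidence intervals) for ConA against saline in each genotype (left) and for KO against WT in each treatment (right). *Il33* is the only filled point of the 8 genes tested between KO ConA and WT ConA, with an interval from 0.81 to 1.91.

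The comparison of KO ConA with WT ConA asked whether loss of the m6A reader YTHDF1 changed the family in the inflamed liver. Of 8 genes tested, *Il33* was called, higher in KO, against 0.428% of all genes in either direction, 0.342% higher and 0.0856% lower. Its log2 difference was 1.36 (SE 0.250, 95% interval 0.81 to 1.91) and its adjusted p of 0.049996 lay at the threshold. The call was lost without any 1 of the 8 ConA libraries in turn (adjusted p 0.0501 to 0.119) and without both ConA libraries numbered 3 (0.0863), while the direction stayed the same. The groups did not overlap, as was so in the higher direction for 6.37% of all genes tested.

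Stellate cells, endothelium and stressed hepatocytes are known sources of *Il33*. The stellate cell markers summed to 92.1 to 179 TPM in KO ConA and 54.1 to 128 in WT ConA, with overlapping ranges and none of 4 markers tested called. In saline mice they summed to 154 to 248 TPM in KO and 32.9 to 128 in WT, where 3 of 7 were called higher in KO against 6.30% of all genes, while *Il33* overlapped between these groups. Sinusoidal endothelial markers of ConA mice summed to 16.9 to 37.6 TPM for WT and 19.6 to 38.7 for KO, also overlapping. In saline mice they summed to 36.0 to 60.8 TPM in KO and 22.4 to 30.9 in WT, and 4 of 6 were called higher in KO. None of these saline calls of either cell type was left without WT saline mouse 2 or 3 or with both averaged (adjusted p 0.0927 to 0.162). Without KO saline mouse 1 there were 0 stellate and 1 endothelial calls left, without KO saline mouse 2 there were 0 and 3, and without KO saline mouse 3 there were 2 and 3. Bile duct (cholangiocyte) markers, mostly *Spp1*, summed to 36.8 to 56.4 TPM in KO ConA and 18.7 to 32.1 in WT ConA, without overlap. None of 5 tested was called. In saline mice they summed to 83.7 to 89.4 TPM in KO and 46.5 to 57.0 in WT. There 2 of 4 tested were called higher in KO. Neither call was left without WT saline mouse 2 or 3, with both averaged, or without KO saline mouse 1 (adjusted p 0.0544 to 0.141). The part of all these cells in the *Il33* difference was not tested.

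Between the ConA groups *Il1rn* was 0.96 higher in KO mice on the log2 scale (SE 0.271, 95% interval 0.36 to 1.56), with 1 WT mouse, at 289.21 TPM, inside the KO range, and did not pass (adjusted p = 0.118). The other 6 did not pass either. The interval of the difference was -0.34 to 0.74 for *Il1b*, -0.16 to 0.97 for *Il1r2*, -0.90 to 0.01 for *Il1rap*, -0.70 to 0.59 for *Il1r1*, -0.36 to 0.45 for *Il18* and -0.49 to 0.31 for *Il18bp*. Differences of up to about these bounds can therefore not be excluded by 4 mice a group.

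In saline mice 4 of 5 genes tested were lower in KO than in WT, against 19.2% of all genes called, 12.9% lower and 6.30% higher. *Il1rn* was 1.05 lower on the log2 scale (adjusted p = 0.0249), *Il1rap* 0.61 lower (adjusted p = 0.0189), *Il18bp* 0.47 lower (adjusted p = 0.0424) and *Il18* 0.31 lower (adjusted p = 0.0398). None of the 4 overlapped between the groups, and neither did *Il1b*, which was too low to be tested. Among all genes tested, 29.2% did not overlap in the lower direction. The fifth gene, *Il1r1*, had an interval of -0.46 to 0.13.

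These 4 calls rested on the close pair of WT saline mice. All were lost without WT saline mouse 2 (adjusted p 0.0804 to 0.148), without WT saline mouse 3 (0.0981 to 0.134), and with both averaged and counted as 1 mouse (0.0836 to 0.135). They were also lost when all 14 libraries shared 1 fit (0.0833 to 0.324). Leaving out KO saline mouse 1 kept *Il18bp* alone, with adjusted p of 0.0973 for *Il18*, 0.0622 for *Il1rn* and 0.0547 for *Il1rap*. Without KO saline mouse 2, *Il18* (0.0601) and *Il18bp* (0.102) were lost, without WT saline mouse 1 *Il18* (0.0686) and *Il18bp* (0.0758), and without KO saline mouse 3 *Il18bp* (0.0704).

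Whether the ConA response itself differed between genotypes was tested by the interaction over all 14 libraries. *Il1rn* was the 1 gene called of 9 tested, against 4.78% of all genes, with a response larger in KO by 2.01 on the log2 scale (SE 0.402, 95% interval 1.15 to 2.86, adjusted p = 0.0255). KO mice started lower (0.99 to 2.07 TPM against 3.19 to 5.67) and ended higher on average (342.9 against 183.5 TPM). The call was lost without WT saline mouse 2 (adjusted p = 0.0850), WT saline mouse 3 (0.0930), KO saline mouse 1 (0.0818) or KO ConA mouse 4 (0.0506), and with WT saline mice 2 and 3 averaged (0.0885). The estimate stayed between 1.81 and 2.25 in all 14 fits that left out 1 library.

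*Il33* had the next largest interaction, 1.19 (SE 0.334), which did not pass (adjusted p = 0.0530). It passed without KO saline mouse 3 (0.0496), WT ConA mouse 1 (0.0437), WT ConA mouse 4 (0.0434) or KO ConA mouse 1 (0.0448), and without both ConA libraries numbered 3 (0.0351). The interaction was 0.88 for *Il1b* (adjusted p = 0.120) and between 0.11 and 0.47 for the other 6 genes (adjusted p of 0.316 or more). *Il1rn* rose by 2.01 beyond its WT response where the median interaction of all genes was 0.14.

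The ratio of each inhibitor or decoy to a partner gene was followed within mice. TPM of *Il1rn* exceeded that of *Il1b* 3.17- to 3.63-fold in WT saline and 2.68- to 4.93-fold in KO saline. After ConA it did so 12.8- to 45.8-fold for WT and 27.8- to 92.0-fold for KO mice. The mean log2 ratio of TPM + 1 rose by 3.24 in WT and 4.37 in KO, with no overlap in either genotype (exact permutation p = 0.057 for each, two-sided, the smallest that 4 mice against 3 allow). Between KO ConA and WT ConA the ratio differed by 0.76, with overlapping mice (exact permutation p = 0.229).

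*Il18bp* and *Il18* exchanged their order. The ratio of *Il18bp* to *Il18* TPM was 0.350 to 0.369 in WT saline and 0.243 to 0.387 in KO saline. After ConA it was 3.87 to 4.79 for WT and 2.61 to 6.60 for KO mice. The mean log2 ratio rose by 3.35 in WT and 3.39 in KO (exact permutation p = 0.057 for each). Its KO ConA and WT ConA values overlapped and differed by -0.13 (exact permutation p = 0.657). The decoy stayed well under the receptor, with *Il1r2* after ConA at 0.0457 to 0.0820 of *Il1r1* for WT and 0.0429 to 0.142 for KO mice. Relative to *Il1a*, *Il1rn* was 4.04- to 7.08-fold in WT saline and 105.0- to 590.2-fold in WT ConA. In KO mice it was 1.18- to 4.31-fold in saline and 168.7- to 686.4-fold after ConA. *Il1a* was at only 0.40 to 1.71 TPM over all mice, so these folds rest on values near the floor. None of the 16 ratio tests passed after Benjamini-Hochberg adjustment, the smallest adjusted p being 0.152.

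**Figure D4:**
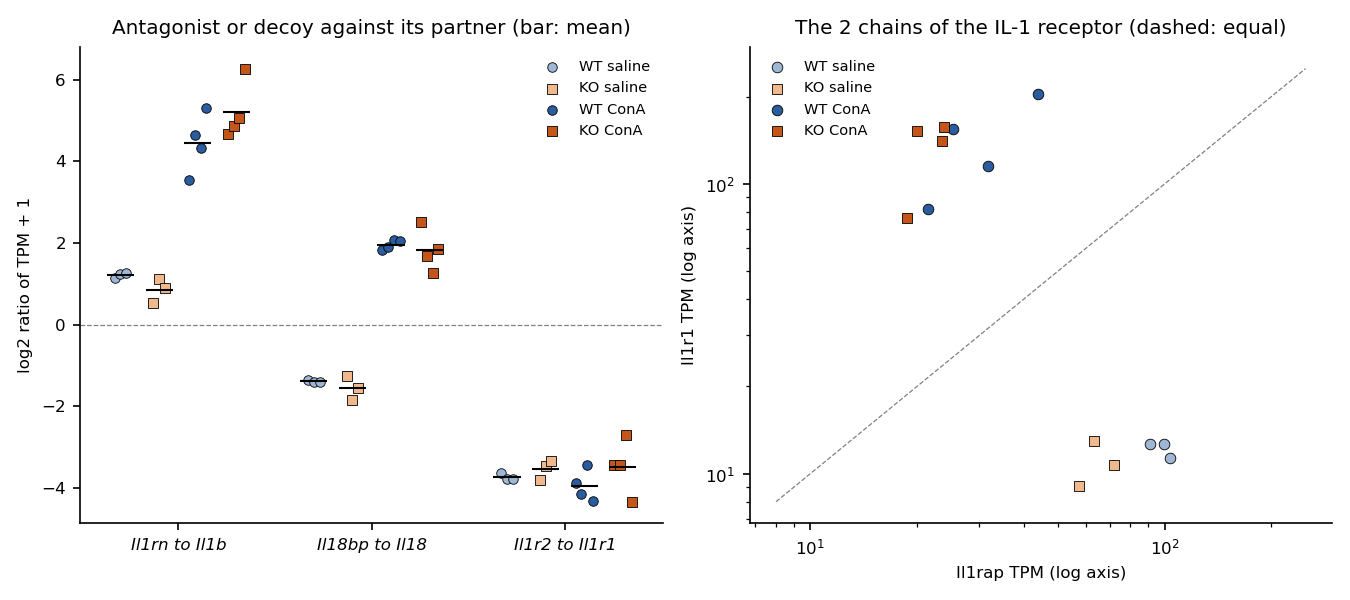
Left, log2 ratio of TPM + 1 (vertical axis) for each inhibitor and its partner in each mouse, with group means as bars. Right, *Il1r1* against *Il1rap* TPM in each mouse on log axes with the line of equality; saline mice lie below the line, at ratios of 0.204 or less, and ConA mice above it, at 3.64 or more.

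Of the other family members, 7 genes were in the tables and 3 reached the filter. *Il18r1*, the IL-18 receptor chain, rose from 0.02 to 0.16 TPM in WT saline to 0.70 to 2.24 in WT ConA. Its log2 fold change was 1.08 in WT (adjusted p = 0.00177) and 1.05 in KO (adjusted p = 0.000246). It had no saline mouse at 1 TPM in either genotype and entered the test through the ConA mice alone. *Il1f9*, which encodes the ligand IL-36γ, rose in WT (0.78, adjusted p = 0.00447) and KO (1.44, adjusted p = 0.00127). *Sigirr*, an inhibitory orphan receptor, fell in WT (-0.82, adjusted p = 0.0138) and KO (-0.74, adjusted p = 0.00218). *Il18rap*, the partner chain of *Il18r1*, was too low to be tested, at 0.02 to 0.09 TPM in WT saline and 0.30 to 1.10 in WT ConA.

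Of 18 genes that carry the signal from the receptor, 6 rose and 1 fell in WT (median log2 fold change 0.17, against -0.07 for all genes tested). In KO, 10 rose and 1 fell (median 0.59 against 0.07). Of all genes tested, 22.0% rose and 31.0% fell in WT, and 33.9% rose and 30.7% fell in KO. *Irak3*, which encodes IRAK-M, an inhibitor of IRAK signaling, rose from 0.20 to 0.28 TPM in WT saline to 17.82 to 31.01 in WT ConA. Its log2 fold change was 4.13 in WT (adjusted p = 8.31e-07) and 4.24 in KO (adjusted p = 7.88e-09). It was under 1 TPM in every saline mouse of both genotypes and so entered the test through the ConA mice alone. *Myd88*, the receptor adaptor, rose by 2.06 in WT (adjusted p = 5.23e-06) and 2.16 in KO (adjusted p = 5.88e-07). *Peli2*, a ubiquitin ligase of the pathway, fell by 1.13 in WT (adjusted p = 0.00107) and by 0.67 in KO (adjusted p = 0.00280).

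*Irak2*, a kinase that sustains NF-κB signaling, was the 1 gene of these 18 called by the interaction, at 1.16 (SE 0.272, adjusted p = 0.0342). Over all genes tested the interaction called 4.78%. After ConA *Irak2* was at 10.06 to 18.17 TPM for WT and 25.19 to 34.58 for KO mice, groups that did not overlap. The same held in the higher direction for 6.37% of all genes tested. *Irak2* missed the threshold in KO ConA against WT ConA (log2 difference 0.94, adjusted p = 0.0664). In saline mice it was at 6.75 to 9.74 TPM in WT and 6.17 to 7.77 in KO. The interaction call of *Irak2* was lost without WT saline mouse 2 (adjusted p = 0.106), WT saline mouse 3 (0.102), KO saline mouse 1 (0.0951), KO saline mouse 2 (0.0764), KO ConA mouse 2 (0.0560) or KO ConA mouse 4 (0.0672), and with WT saline mice 2 and 3 averaged (0.104).

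*Chuk*, *Tab2*, *Ikbkg* and *Ikbkb*, components of the kinase complexes upstream of NF-κB, were called lower in the KO mice of the saline groups, 4 of 16 tested, where 12.9% of all genes were. None of the 4 calls was left with WT saline mice 2 and 3 averaged (adjusted p 0.0787 to 0.142) or without either of them (0.0760 to 0.168). Without another saline mouse, 2 were left, or 1 where that was KO saline mouse 1.

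Of the genes of cytokine maturation, 3 of 9 tested rose in WT and 5 of 10 in KO, where 22.0% and 33.9% of all genes rose, and none fell. *Gzmb*, a serine protease of cytotoxic lymphocytes, rose by 2.22 in WT (adjusted p = 0.000358) and 2.71 in KO (adjusted p = 3.74e-06). *Casp4*, the mouse caspase-11 of the non-canonical inflammasome, rose by 1.96 in WT (adjusted p = 5.09e-05) and 2.19 in KO (adjusted p = 1.37e-05). *Gsdmd*, the pore-forming substrate of these caspases, was the other gene called in WT. *Gzmb* in both genotypes and *Casp4* in WT had no saline mouse at 1 TPM. They entered the test through the ConA mice alone, so they had to differ in order to be tested.

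Genes known to respond to IL-1 in hepatocytes or macrophages rose almost throughout, 21 of 21 tested in WT (median log2 fold change 3.94) and 23 of 24 in KO (median 3.47). Among all genes tested, 22.0% rose in WT and 33.9% in KO. *Tnfaip3*, *Cxcl2*, *Ccl2* and *Nos2* were under 1 TPM in every saline mouse of both genotypes. *Cxcl5*, *Ptgs2* and *Csf3*, tested in KO, were under 1 TPM in every KO saline mouse. These genes entered the test through the ConA mice alone, so they had to differ in order to be tested. The counts and medians therefore describe the genes that could be tested. The paper reports that serum IL-6 and TNF-α also rose after ConA. The part of IL-1 in the increase of these genes was not tested. *Saa3* rose from 40.95 to 53.87 TPM in WT saline to 14931.65 to 30461.25 in WT ConA, and *Saa2* from 100.55 to 153.74 to 42233.58 to 49917.23. Both are acute-phase serum amyloid genes. *Saa1* and *Saa2*, 2 of 24 response genes tested, were called by the interaction, at 1.54 (adjusted p = 0.0445) and 1.12 (adjusted p = 0.0280), against 4.78% of all genes. Their ConA levels overlapped between genotypes, with log2 differences of 0.10 and 0.06, and in saline mice both were lower in KO, by 1.44 (adjusted p = 0.0477) and 1.06 (adjusted p = 0.0231). These were 2 of the 4 response genes of 17 tested that were called lower there, where 12.9% of all genes were. None of the 4 calls was left with WT saline mice 2 and 3 averaged (adjusted p 0.0862 to 0.135), without either of them (0.0804 to 0.147) or without KO saline mouse 1 (0.0682 to 0.131). Without any other saline mouse, 2 of the 4 were left. *Saa1* and *Saa2* are near-identical copies, so reads may be split between them. The *Saa2* interaction was lost without WT saline mouse 2 (adjusted p = 0.057), WT saline mouse 3 (0.0930), KO saline mouse 1 (0.0853) or KO ConA mouse 4 (0.0556), and with WT saline mice 2 and 3 averaged (0.0753). That of *Saa1* passed in only 3 of the 14 fits leaving out 1 library, those without KO saline mouse 2 (0.0323), WT ConA mouse 4 (0.0433) or KO ConA mouse 3 (0.0494), and was lost with the averaging (0.0955).

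Between KO ConA and WT ConA none of the genes of these 4 lists was called by limma. At an unadjusted p under 0.05 stood 0 of 3 other family members, 2 of 18 signaling, 0 of 10 maturation and 7 of 24 response genes, where 16.7% of all 10519 genes did.

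**Figure D5:**
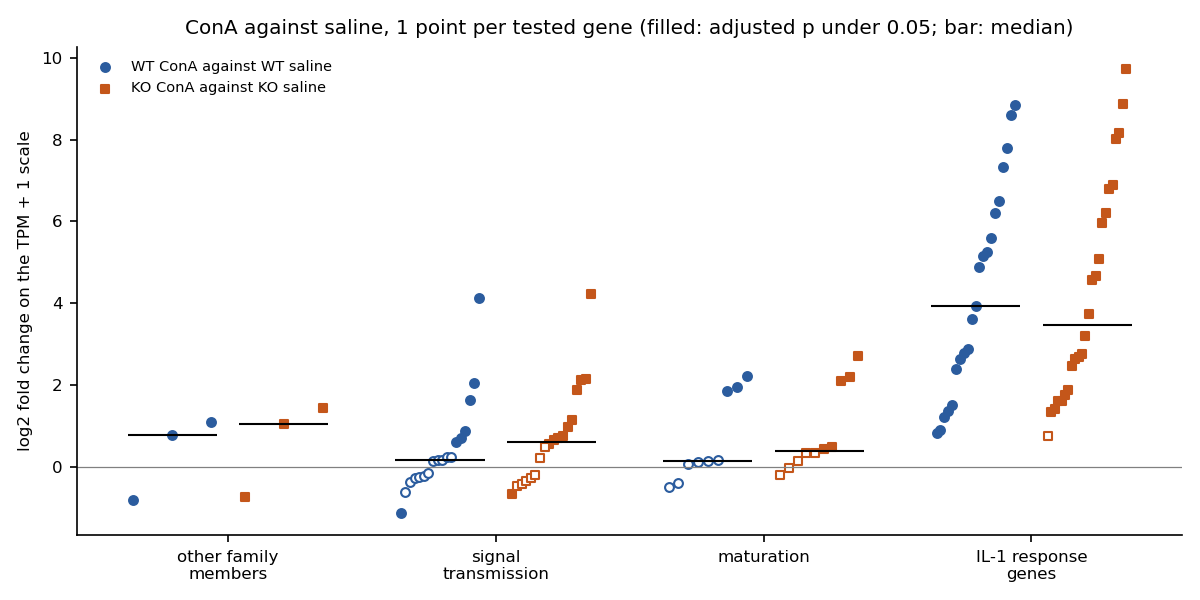
Log2 fold change on the TPM + 1 scale (vertical axis) of each tested gene in 4 lists, for WT (circles) and KO (squares) mice, filled where called, with list medians as bars. All 21 response genes tested in WT are filled and above 0, whereas the signal transmission genes have a median of 0.17 in WT. Genes under 1 TPM in every saline mouse were tested only because the ConA mice reached that level.

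The genes whose pattern over the 14 libraries lay closest to each member, by the root mean square difference of log2(TPM + 1) after subtracting the WT saline mean, were looked up among 11327 genes. For *Il33* these were *Nid1* (0.192), a basement membrane gene, and *Myh9* (0.296). *Nid1* after ConA was at 1.36 to 4.13 TPM for WT and 7.98 to 8.76 for KO mice. For *Il1r2* they were *Slc16a3* (0.218) and *Acod1* (0.232), for *Il1rn* *Cd14* (0.530) and *Steap4* (0.551), and for *Il1rap* *Cyp2c50* (0.176). *Il1b* lay closest to *Parp9* (0.301) and *Usp18* (0.306), *Il1r1* to *Eif1a* (0.306) and *Hspa5* (0.347), *Il18* to *Nrn1* (0.171) and *Gcsh* (0.180), *Il18bp* to *Slc35b1* (0.207) and *Mis12* (0.216), and *Il1a* to *H2-DMa* (0.134) and *Cndp2* (0.178). Because every comparison gene was measured in the same libraries, these are descriptions and carry no test.

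In the genome, *Il1r2*, *Il1r1* and *Il1rl1* lie within 0.381 Mb of chromosome 1 (GRCm38.p6, 40084692 to 40465418), and *Il1a* (129299609 to 129310186) and *Il1b* (129364569 to 129371164) are neighbors on chromosome 2. After ConA *Il1r1* and *Il1r2* rose while *Il1rl1* stayed at or under 0.25 TPM, and *Il1b* rose in both genotypes while *Il1a* did not pass in KO mice. *Il1rn* (24336860 to 24351491) lies far from both ligands on the same chromosome.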

How the data were processed

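Liver RNA from 14 mice was sequenced by the authors as single-end reads of 50 bases (BGISEQ-500). The submitters' processing notes name Bowtie2, RSEM 1.3.1 and GRCm38.p6, whereas the paper's methods name STAR, HTSeq and edgeR. Which of these made the values is not settled here. The deposited values are TPM, summing to 1000000 per library over 17656 genes, with 2 decimals. Read depth is therefore unknown, and the spread between mice is the only measure of error. The labels call the samples biological replicates. TPM is relative, so a rise in a few abundant genes lowers the rest.

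Groups came from the labels. Linear models of log2(TPM + 1), in place of a count test, were fitted in limma 3.58.1 under R 4.3.3 with trended eBayes, over genes whose TPM was 1 or higher in a number of libraries no smaller than the size of the smaller group, with Benjamini-Hochberg adjustment over all of them and a call at adjusted p under 0.05. Each comparison used its own libraries, and the interaction all 14. Ratios within mice used exact two-sided permutation tests (SciPy 1.17.1). The script was tested on simulated data. The genes, the lists and the rule for naming genes (all 10 members, the 2 largest rises and falls of each list in WT, genes called by genotype, and the 2 nearest patterns of each member) were chosen with earlier results of these data known. A gene named by this rule is not reported here. Alternatives were another pseudocount (0.1), another TPM minimum (5) or none, rescaled libraries, robust eBayes, the replicate block, all libraries in 1 fit, averaging of WT saline mice 2 and 3, and leaving out each library. Leaving out both ConA libraries numbered 3, or WT ConA library 3 with WT saline mice 2 and 3 averaged, was added after seeing the data, as was repeating the saline comparison of list genes and markers with these libraries averaged or left out.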

Additional observations from a re-analysis of the deposited data

Results flagged for a closer look

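In 4 of the named genes the interaction of genotype and ConA was called, where 4.78% of all genes were. All 4 calls were lost with WT saline mice 2 and 3 averaged (limma adjusted p 0.0753 to 0.104). For *Il1rn* the response was larger in KO by 2.01 on the log2(TPM + 1) scale, for *Irak2* by 1.16, for *Saa1* by 1.54 and for *Saa2* by 1.12. In all 4 the mean of the KO mice was the lower one in the saline groups and the higher one in the ConA groups. None of the 20 sets of 4 mice, 10 genes in each of the 2 ConA groups, held a value far enough from the others to be singled out by Dixon's test, which by chance picks about 1 set in 20.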

How the results depend on the processing

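In WT ConA against WT saline and in KO ConA against KO saline, each of 8 genes called, the count stayed at 7 to 9 under every alternative run, and the direction of every member tested stayed the same. The only other call was *Il1a* in KO (adjusted p = 0.0408 with the replicate block). The count of 1 for KO ConA against WT ConA became 0 with a pseudocount of 0.1, a minimum of 5 TPM, no minimum, rescaled libraries, robust eBayes or both ConA libraries numbered 3 left out, with adjusted p for *Il33* of 0.0517 to 0.113. It was 0 in each fit leaving out 1 library (0 to 0). It became 2 with the replicate block (*Il1rn* adjusted p = 0.0438) and with all 14 libraries in 1 fit (*Il1rn* adjusted p = 0.0468). Whether the replicate numbers pair the mice is not settled here. The residual correlations of same-numbered mice were not all above 0.1 in any comparison. Between the ConA groups they ranged from -0.0071 to 0.405, the highest for the mice numbered 3. Over all genes the block moved the calls between the ConA groups from 45 to 140. For KO saline against WT saline the count of 4 became 1 with no minimum, 2 with rescaled libraries, 0 with all 14 libraries and 0 with WT saline mice 2 and 3 averaged, and ranged from 0 to 4 with 1 library left out. For the interaction the count of 1 became 0 with these mice averaged, 2 without both ConA libraries numbered 3, and 0 to 2 with 1 library left out. Averaging WT saline mice 2 and 3 took the calls over all genes from 2009 to 49 in saline mice and from 541 to 28 for the interaction. The cause was not tested. Rescaling moved the median interaction of all genes from 0.14 to 0.03.

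Signs turned in small differences that passed nowhere. Between KO ConA and WT ConA, *Il18* was at -0.022 with rescaled libraries, at -0.0905 without both ConA libraries numbered 3, and from -0.032 to 0.116 with 1 library left out. With 1 library left out *Il1r1* ranged from -0.28 to 0.19 there and *Il18bp* from -0.24 to 0.037, and the *Il1r1* interaction from -0.11 to 0.35. The *Il1r1* interaction was -0.024 with rescaled libraries. The log2 ratio of *Il1r2* to *Il1r1* in WT ConA against WT saline was 2.85 with a pseudocount of 0.1 against -0.21 with 1, since *Il1r2* is listed at 0 in saline. In KO it ranged from -0.21 to 0.33 with 1 library left out, and the ratio of *Il18bp* to *Il18* in KO ConA against WT ConA from -0.36 to 0.054. The files hold no depth, so levels near 0 TPM have no counting error here.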
